A study of Mus musculus with 3 samples.

Results

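Zscan4c, Zscan4d, Zscan4f, Tcstv1, Tcstv3 and Zfp352 are 6 of the 24421 genes counted by RNA-Seq in mouse embryonic stem (ES) cells depleted of the nucleoporin NUP153. They were chosen by name as markers of the 2-cell-like state, with their values in these libraries already known, so what follows is a description and carries no test. The nucleoporin is a component of the basket on the nuclear side of the nuclear pore. The study asked how its loss changes chromatin organization and transcription.

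EL16.7 is a female ES cell line of the background F2 129S1/CastEiJ x 129S1, labelled wild type. All cells were grown with LIF and serum on γ-irradiated fibroblasts from Tg(DR4)1Jae/J mice, transduced with lentivirus carrying a scramble shRNA (control) or a NUP153 shRNA (KD-1 or KD-2), and selected with puromycin. Each group is 1 library of total RNA depleted of ribosomal RNA, so a difference between groups cannot be told apart from a difference between cultures. On genes the control library held 72344726 reads, that of KD-1 85258834 and that of KD-2 69839336. Nup153 itself had 27870 control reads, 16451 KD-1 reads and 11126 KD-2 reads, which is 0.504 times the control level for KD-1 and 0.371 times for KD-2 after scaling.

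In the mouse embryo the 2-cell stage is when the zygotic genome is first broadly transcribed. A small and changing fraction of ES cells in culture returns for a time to a similar transcription program, called the 2-cell-like state, and Zscan4 transcripts are its usual marker. The Zscan4 genes are a cluster of near-identical copies that code for zinc finger proteins with a SCAN domain, known for a role in telomere maintenance. Tcstv1 and Tcstv3 belong to a variable family of transcripts of the 2-cell embryo, and Zfp352 codes for a zinc finger protein of the same stage. In bulk libraries such as these, fewer cells in the state and less RNA per cell cannot be told apart.

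The copies matter here because a short read often fits several of them. By the GENCODE M21 annotation of GRCm38, Zscan4c lies at chr7:11005745-11010547 on the plus strand, Zscan4d at chr7:11161374-11166159 on the minus strand, and Zscan4f at chr7:11397915-11402318 on the plus strand. Their coding sequences are 1521 bases each, and Zscan4c differs from Zscan4f at 6 bases and from Zscan4d at 35. The stretch of coding bases 1032 to 1091, holds 6 of the 38 coding bases at which the 3 copies are not all the same, the most in any window of 60 bases. It is shown 5′ to 3′ as the transcript reads, with those bases in capitals, and it lies in a coding exon at chr7:11009507-11009566 (Zscan4c), chr7:11162351-11162410 (Zscan4d) and chr7:11401700-11401759 (Zscan4f).
Zscan4c: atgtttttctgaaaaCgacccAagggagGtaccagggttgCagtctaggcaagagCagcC
Zscan4d: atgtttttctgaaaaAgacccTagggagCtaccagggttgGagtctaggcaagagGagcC
Zscan4f: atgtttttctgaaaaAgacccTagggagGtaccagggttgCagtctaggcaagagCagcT

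Sequenced reads were 50 bases long, and the authors kept reads of high mapping quality, which a read that fits several places equally well does not have. The share of 50-base stretches found in no other gene's transcripts is therefore a rough guide to how many reads a copy can receive. It was sought in transcripts only, not in the rest of the genome. That share was 14.5% for Zscan4c, 50.4% for Zscan4d and 4.66% for Zscan4f, the last being 83 of 1780 stretches. It was 83.2% for Tcstv1, 68.6% for Tcstv3 and 92.9% for Zfp352. Reads of the Zscan4 copies did not follow this share closely. In KD-1 Zscan4f had 213 reads, and Zscan4d, with 1121 such stretches, had 261. The reads of a single Zscan4 copy are uncertain as a measure of that copy, while the sum over copies depends less on how reads were placed among them. The transcripts searched were those of the reference strain, and differences of the genome of these cells from it were not analysed here.

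The promoters of the Zscan4 copies are also near-identical. Sequences from RefSeq (GRCm38.p6), covering 250 bases before to 50 after each annotated start, were matched for 4 of the 6 genes, and Zscan4b, which is not among the 6 genes, is used here for comparison only. Zscan4c and Zscan4f were identical at 99.3% of 277 aligned bases, Zscan4c and Zscan4d at 97.2% of 289, and Zscan4c and Zscan4b at 95.3% of 277. Capitals mark the longest run shared by Zscan4b, Zscan4c, Zscan4d and Zscan4f, which is 55 bases long and holds the TATA letters near its 5′ end. The regions are chr7:11005495-11005794 on the plus strand (Zscan4c), chr7:11166099-11166398 on the minus strand (Zscan4d) and chr7:11397665-11397964 on the plus strand (Zscan4f).
Zscan4c: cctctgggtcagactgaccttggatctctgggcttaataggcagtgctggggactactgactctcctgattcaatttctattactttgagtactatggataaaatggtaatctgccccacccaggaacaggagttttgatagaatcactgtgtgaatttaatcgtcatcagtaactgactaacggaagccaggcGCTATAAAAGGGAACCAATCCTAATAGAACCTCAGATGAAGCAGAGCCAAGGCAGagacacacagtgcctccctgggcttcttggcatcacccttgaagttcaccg
Zscan4d: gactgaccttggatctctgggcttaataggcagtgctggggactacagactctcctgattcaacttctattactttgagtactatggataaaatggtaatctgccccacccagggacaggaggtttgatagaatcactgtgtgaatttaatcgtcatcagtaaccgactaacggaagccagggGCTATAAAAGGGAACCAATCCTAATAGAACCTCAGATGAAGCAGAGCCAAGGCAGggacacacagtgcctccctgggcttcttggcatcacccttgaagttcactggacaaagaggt
Zscan4f: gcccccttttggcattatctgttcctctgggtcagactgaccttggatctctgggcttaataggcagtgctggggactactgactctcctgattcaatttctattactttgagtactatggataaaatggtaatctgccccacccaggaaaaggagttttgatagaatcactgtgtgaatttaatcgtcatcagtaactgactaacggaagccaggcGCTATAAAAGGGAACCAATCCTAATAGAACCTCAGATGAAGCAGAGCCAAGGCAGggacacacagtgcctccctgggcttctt

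Zfp352 lies at chr4:90218820-90225702 on the plus strand, and its promoter has a different make-up. In chr4:90218570-90218869, the letters TAATCC (in capitals) occur 9 times on the sense strand, spaced 20 or 21 bases apart at positions from -227 to -61 with the start at 0.
Zfp352: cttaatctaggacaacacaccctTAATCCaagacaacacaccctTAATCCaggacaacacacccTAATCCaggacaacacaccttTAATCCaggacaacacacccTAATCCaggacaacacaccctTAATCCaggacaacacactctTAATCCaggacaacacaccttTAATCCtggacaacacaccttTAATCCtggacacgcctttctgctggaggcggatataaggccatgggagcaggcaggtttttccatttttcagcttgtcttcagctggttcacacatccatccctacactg

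Tcstv1 lies at chr13:119893388-119894785 on the minus strand and Tcstv3 at chr13:120316878-120318178 on the plus strand. AF067061, a counted gene whose transcript is 92.5% identical to that of Tcstv1 over 1170 aligned bases, has a promoter entry at chr13:120262845-120263144 on the plus strand, shown with no part marked.
AF067061: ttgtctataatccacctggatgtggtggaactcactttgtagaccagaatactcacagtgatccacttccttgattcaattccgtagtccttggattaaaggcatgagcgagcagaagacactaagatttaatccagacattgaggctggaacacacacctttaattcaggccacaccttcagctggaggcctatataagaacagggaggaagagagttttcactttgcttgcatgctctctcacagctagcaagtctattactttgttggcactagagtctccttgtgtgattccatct

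The transcription factor DUX, which switches on the 2-cell-like program, binds a motif that contains the letters TGATTNAAT and GATTNAATC, 2 strings that overlap each other in 8 letters. These strings, TAATCC and the TATA letters were chosen after the sequences were seen. On either strand, TGATTNAAT was found in 0.740% and GATTNAATC in 0.281% of 27025 promoters of this length, TAATCC in 7.16%, and TATAA, sought on the sense strand in the 100 bases before the start, in 7.99%. TGATTNAAT occurred once in Zscan4c (at -184), Zscan4f (at -161), Zscan4b (on the antisense strand) and AF067061 (at -179), and these letters were not in the windows of Zscan4d or Zfp352. GATTNAATC was found in AF067061 (at -125). TATAA was found in the promoters of Zscan4b, Zscan4c, Zscan4d, Zscan4f, Zfp352 and AF067061. A match is a string of letters and was not tested as a binding site.

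All 3 Zscan4 copies had their highest level in KD-1. Summed, Zscan4c, Zscan4d and Zscan4f had 113 control reads, 837 KD-1 reads and 192 KD-2 reads, or 1.62, 10.2 and 2.55 RPM, which is the count divided by a library size that puts the upper quartile of gene counts at a common level. KD-1 thus stood 6.32-fold above control (95% counting interval 5.19 to 7.76), and KD-2 1.58-fold above control (1.24 to 2.01). KD-1 was 4.01-fold above KD-2 (3.42 to 4.71). These intervals are exact and cover the counting of reads only, and with 1 library per group there is no replicate check on any of these ratios. Both knockdowns were set against the same control library.

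**Figure D1:**
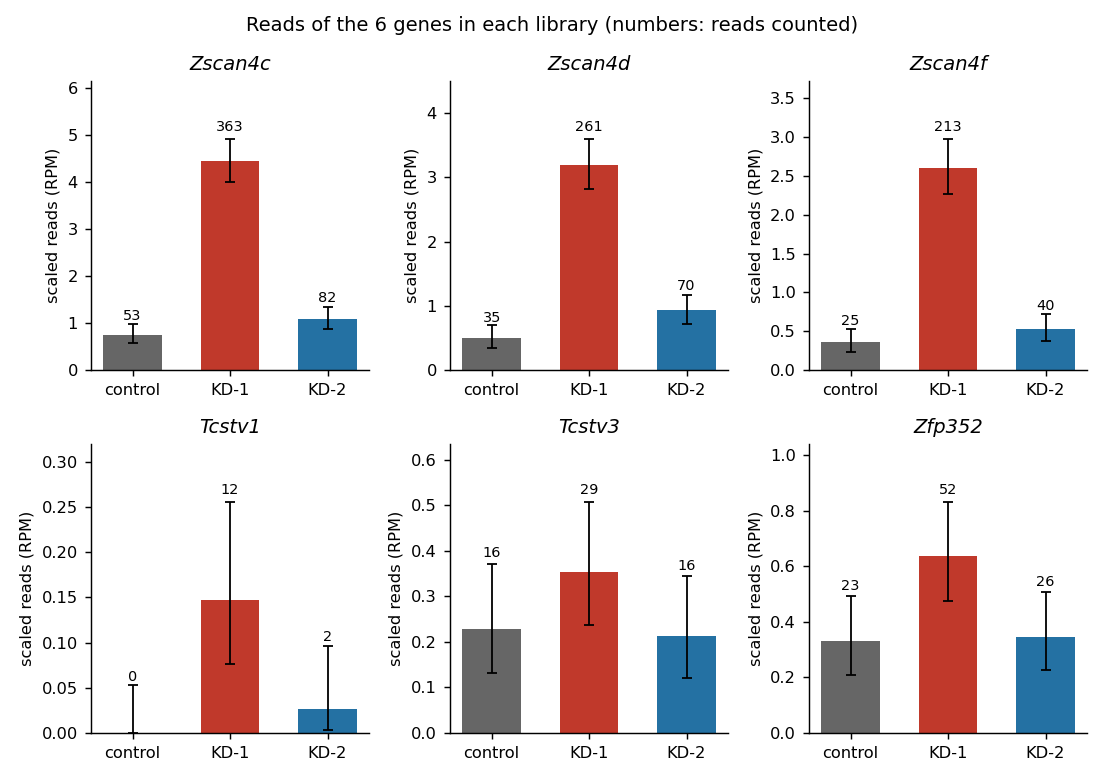
Scaled reads in RPM (vertical axes, each starting at 0) of the 6 genes in the control, KD-1 and KD-2 libraries, 1 library per bar, with exact 95% Poisson intervals as lines and the counted reads as numbers. The 3 Zscan4 copies reach 213 to 363 reads in KD-1 and at most 53 in control, while Tcstv3 has 16, 29 and 16 reads with overlapping intervals.

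Zscan4c had 53 control reads, 363 KD-1 reads and 82 KD-2 reads. KD-1 was 5.85-fold above control (4.37 to 7.95) and KD-2 1.44-fold (1.005 to 2.07). Both intervals lay above 1, that of KD-2 only just.

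Zscan4d had 35, 261 and 70 reads in the same order, with KD-1 6.36-fold (4.46 to 9.34) and KD-2 1.86-fold above control (1.22 to 2.87). It is the copy with the most unique sequence of the 3. Its KD-2 interval too lay wholly above 1.

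Zscan4f had 25, 213 and 40 reads, with KD-1 7.27-fold (4.79 to 11.5) and KD-2 1.49-fold above control (0.879 to 2.56). A difference between KD-2 and control was not detectable for this copy with this scaling. With libraries scaled by the summed reads of ES cell markers, its KD-2 ratio was 1.96 (1.16 to 3.37) and that of Zscan4c 1.89 (1.32 to 2.73). Against KD-2, KD-1 was 4.07-fold higher for Zscan4c (3.19 to 5.24), 3.43-fold for Zscan4d (2.62 to 4.53) and 4.89-fold for Zscan4f (3.48 to 7.04), and these 3 intervals overlap.

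The makeup of the sum was alike across libraries within counting error. Zscan4c supplied 46.9% of the reads of the 3 copies in control (exact Clopper-Pearson 95% interval 37.5 to 56.5), 43.4% in KD-1 (40.0 to 46.8) and 42.7% in KD-2, with overlapping intervals. Zscan4d supplied 31.0%, 31.2% and 36.5%, and Zscan4f 22.1%, 25.4% and 20.8%, in the same order of libraries.

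Further counted copies also had their highest level in KD-1. Zscan4a, annotated as an unprocessed pseudogene, had 32 control reads, 234 KD-1 reads and 45 KD-2 reads. Its KD-1 ratio was 6.24 (4.30 to 9.34) and its KD-2 ratio 1.31 (0.812 to 2.12), with a KD-2 interval that includes 1. Zscan4b had 9, 124 and 27 reads, a KD-1 ratio of 11.8 (5.998 to 26.3) and a KD-2 ratio of 2.79 (1.27 to 6.73). Summed over all 5 counted Zscan4 copies, the reads were 154, 1195 and 264, with KD-1 6.62-fold (5.60 to 7.88) and KD-2 1.59-fold above control (1.30 to 1.95). Zscan4e and the pseudogenes Zscan4-ps1, Zscan4-ps2 and Zscan4-ps3 have no row under these names in the counts.

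Tcstv1 had 0 control reads, 12 KD-1 reads and 2 KD-2 reads. With a floor of 3 reads for a count of 0, which is 0.0429 RPM in control, KD-1 was at least 3.41-fold higher than control, and the exact 95% counting interval of the ratio to 0 reads begins at 2.37. KD-2 and control were both under the floor, so no ratio is given for them. KD-1 was 5.52-fold above KD-2, with an interval of 1.23 to 50.7 that rests on 2 reads in KD-2.

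Tcstv3 had 16 control reads, 29 KD-1 reads and 16 KD-2 reads. KD-1 was 1.55-fold above control, and its interval of 0.813 to 3.05 includes 1. KD-2 stood at 0.929 times control (0.435 to 1.98), and at 1.04 times with libraries scaled by total reads. No difference of Tcstv3 between any pair of libraries was detectable at this depth.

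Summed over Tcstv1 and Tcstv3, the reads were 16, 41 and 18. KD-1 was 2.19-fold above control (1.20 to 4.18) and 2.09-fold above KD-2 (1.18 to 3.87), while KD-2 stood at 1.04 times control (0.503 to 2.19). Scaled by ES cell markers, the ratio of KD-1 to KD-2 was 1.43 (0.801 to 2.64), below 1.5-fold and with an interval that includes 1. In KD-1, 12 of the 41 reads came from Tcstv1, and the interval of the Tcstv ratio did not overlap that of the Zscan4 sum. Of the similar genes, which transcript sequence places in the same family, AF067061 had 15, 51 and 10 reads, Gm20767 had 78, 212 and 78, and AF067063 had 8, 13 and 9. With these 3 genes, chosen after their sequences were seen, the sum was 117, 317 and 115 reads, and the KD-1 ratio was 2.31 (1.86 to 2.88) beside a KD-2 ratio of 0.913 (0.699 to 1.19). Gm20767 overlaps another annotated gene, Gm20769, and which strand was counted is not given in the sources used here.

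Zfp352 had 23 control reads, 52 KD-1 reads and 26 KD-2 reads. KD-1 was 1.93-fold above control (1.16 to 3.30) and 1.84-fold above KD-2 (1.13 to 3.07). KD-2 stood at 1.05 times control (0.576 to 1.93), a difference that was not detectable. The difference between the knockdowns depends on the scaling, since with ES cell markers the ratio of KD-1 to KD-2 was 1.251 (0.767 to 2.09).

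**Figure D2:**
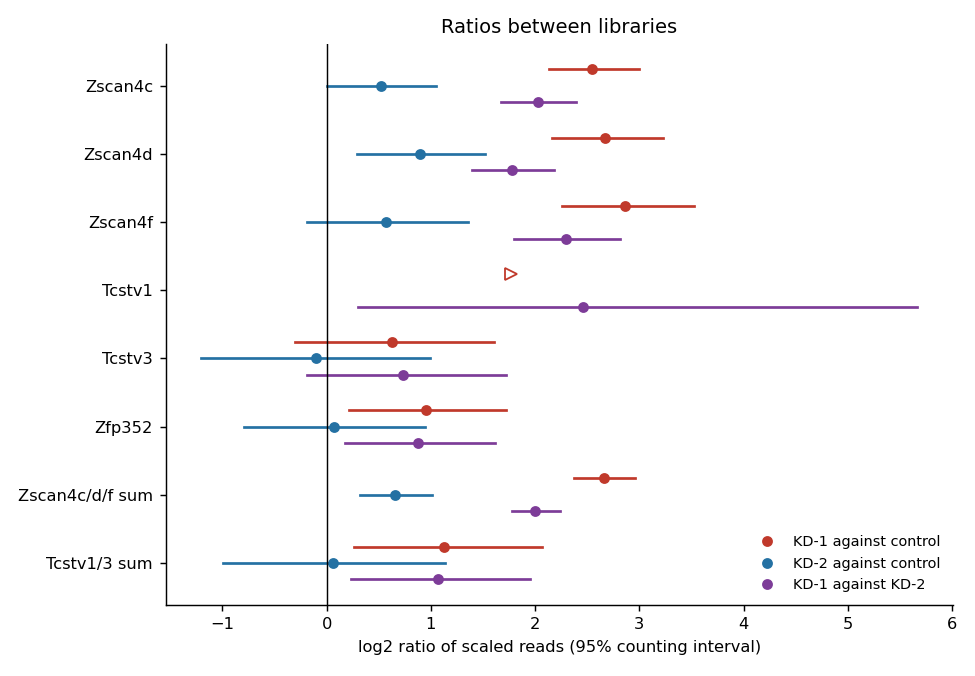
Log2 ratio of scaled reads (horizontal axis) for each gene and for the 2 sums, with exact 95% counting intervals as lines. Red is KD-1 against control, blue KD-2 against control and purple KD-1 against KD-2, with 1 library per group, and the open triangle is the lower bound for Tcstv1, which had 0 reads in control. The Zscan4 sum lies at 2.66 with KD-1 and 0.66 with KD-2, and the Tcstv sum at 1.13 and 0.06.

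Per exon length, the 6 genes were expressed at low levels in every library. In control, Zscan4c had 0.333 RPKM (the RPM divided by the exon length in kilobases), Tcstv3 0.294, Zscan4d 0.220, Zscan4f 0.183, Zfp352 0.145 and Tcstv1 0. Neighbours in this order overlapped in their counting intervals except Zfp352 and Tcstv1. In KD-1 the order was Zscan4c at 1.95 RPKM, Zscan4d at 1.40, Zscan4f at 1.33, Tcstv3 at 0.455, Zfp352 at 0.279 and Tcstv1 at 0.105. There the intervals of Zscan4d and Zscan4f overlapped, as did those of Tcstv3 and Zfp352, and the other neighbours did not. KD-2 had Zscan4c at 0.479 RPKM, Zscan4d at 0.409, Tcstv3 at 0.273, Zscan4f at 0.271, Zfp352 at 0.152 and Tcstv1 at 0.0190, and of these neighbours only Zfp352 and Tcstv1 were apart. The order of the Zscan4 copies rests on the length used. In KD-1, per kilobase of unique 50-base stretches, the level was 31.3 RPM for Zscan4f, 13.8 for Zscan4c and 2.84 for Zscan4d.

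Against all genes, a gene was counted as past the fold where scaled reads plus a pseudocount of 0.5 differed by more than 1.5-fold, among the 16670 genes averaging 10 reads or more per library. Of the 6 genes, 5 passed this minimum, and Tcstv1, with a mean of 4.67 reads, did not. In KD-1 all 5 were past the fold upward, beside 8.58% of all genes upward and 5.65% downward. In KD-2 only Zscan4d of the 5 was, upward, beside 17% of all genes upward and 10.2% downward. Between the knockdowns 5 of 5 were higher in KD-1, beside 13.9% of all genes higher and 16.2% lower in KD-1. The genes were picked with these contrasts known, so nothing is read from these shares. The direction of the background depends on the scaling. With libraries scaled by ES cell markers, 6030 genes were past the fold upward and 333 downward in KD-2, 335 and 6550 between the knockdowns, and 927 and 1509 in KD-1, and 3, 3 and 4 of the 5 genes, respectively, were past it upward.

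In log2 ratio of KD-1 to control, Zscan4f stood at 2.84, with 8 of the 16670 genes above it. Zscan4d stood at 2.65 with 14 genes above it, and Zscan4c at 2.54 with 20. Zfp352 at 0.93 had 595 genes above it and Tcstv3 at 0.61 had 1329. In KD-2 the same measure was 0.88 for Zscan4d, with 1253 genes above it, while 2994 lay above Zscan4f and 3269 above Zscan4c. More genes thus lay above each Zscan4 copy in KD-2 than in KD-1.

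**Figure D3:**
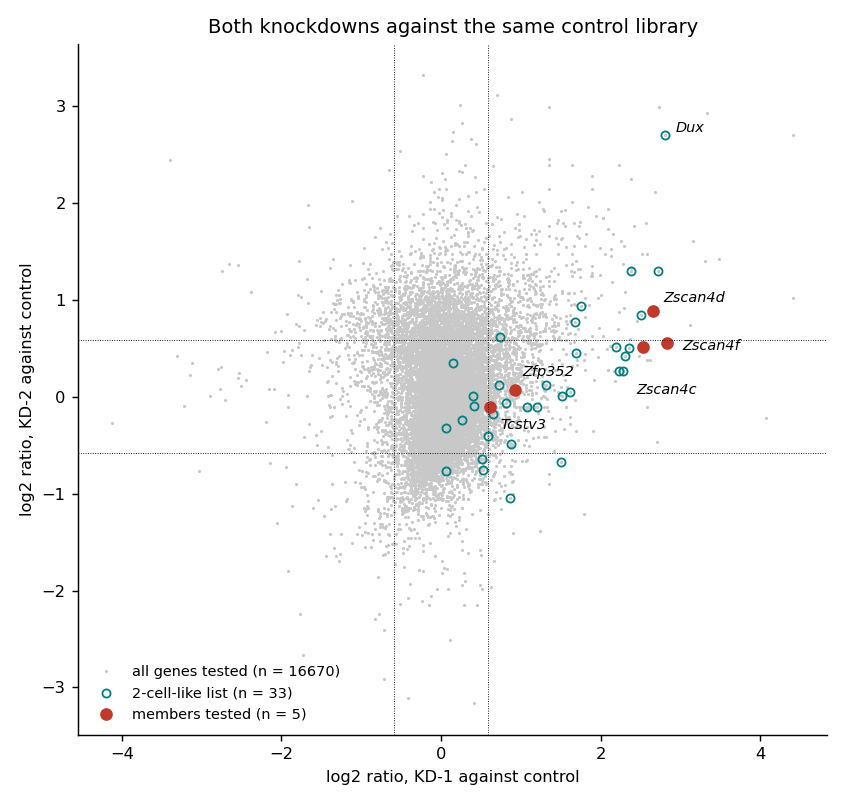
Log2 ratio to control in KD-1 (horizontal) and KD-2 (vertical) for the 16670 genes averaging 10 reads or more, both against the same control library. Red points are the 5 genes that passed this minimum (Tcstv1 did not), green rings the 33 genes of the wider 2-cell-like list, and dotted lines mark 1.5-fold. The Zscan4 copies lie at 2.54 to 2.84 in KD-1 and 0.52 to 0.88 in KD-2.

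A wider list of 69 genes linked to the 2-cell-like state was followed in the same way. It held 58 counted genes, of which 11 had no read in any library and 33 passed the minimum mean. That mean is over the 3 libraries, so a gene low in control can pass it through a knockdown. In KD-1, 25 of the 33 were past the fold upward and 0 downward, beside 8.58% and 5.65% of all genes, with a median log2 ratio of 1.21 beside 0.02 over all genes. In KD-2, 7 were past the fold upward and 5 downward, shares near the 17% and 10.2% of all genes, with a median of 0.05 beside -0.02. Scaled by ES cell markers, these counts were 21 and 0 for KD-1, beside 927 and 1509 of the 16670 genes, and 14 and 1 for KD-2, beside 6030 and 333. The KD-2 median was then 0.45 beside 0.38 over all genes. KD-1 was higher than KD-2 past the fold for 26 of the 33 and lower for 0, beside 13.9% and 16.2% of all genes, with a median of 1.18 beside 0.12. With ES cell markers 18 were higher and 1 lower, with a median of 0.63 beside -0.43.

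Among those past the fold upward in both knockdowns were Dux, Usp17lb, Gm2016, Gm12794, B020004J07Rik and Ubtfl1. Of these, Dux, B020004J07Rik and Ubtfl1 had fewer than 10 control reads, so they passed the minimum mean through the knockdowns. Both ratios of a gene divide by the same control count, and the share of all genes upward in both was not counted. Usp17lb, of a family of deubiquitinating enzymes, had 14 control reads, 88 KD-1 reads and 38 KD-2 reads, and Gm2016, of the eIF1A-like family, had 24, 163 and 47. Gm12794, of the PRAME-like family, had 20, 158 and 54 reads, and B020004J07Rik had 9, 35 and 17. Ubtfl1, related to the ribosomal gene transcription factor UBTF, had 8, 33 and 17 reads. Except for Dux, these genes were also past the fold when KD-1 was set against KD-2. The 5 list genes lower in KD-2, named after their values were seen, were Pramel7, Trim43a, Trim43c, AF067061 and Abcb5. Trim43a, for example, had 104 control reads, 223 KD-1 reads and 54 KD-2 reads.

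Dux, the activator of the program, had 2 control reads, 20 KD-1 reads and 17 KD-2 reads. The ratio to control was 8.53 in KD-1 (2.07 to 75.3) and 7.89 in KD-2 (1.87 to 70.4), both resting on 2 control reads. KD-1 stood at 1.08 times KD-2 (0.538 to 2.20). Dux thus had like reads in both knockdowns, whereas the Zscan4 sum differed 4.01-fold between them. Dux is a multicopy gene in the genome, so its reads are uncertain in the same way as those of Zscan4.

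Of 6 counted genes on a list of activators, Dux was past the fold upward in KD-1, and Dux and Smad7 upward and Dppa4 downward in KD-2, beside 8.58% of all genes upward in KD-1 and, in KD-2, 17% upward and 10.2% downward. Dppa2 and Dppa4, which act upstream of Dux, had log2 ratios of 0.19 and 0.01 with KD-1 and -0.40 and -0.67 with KD-2. Of 25 genes that restrain the 2-cell-like state, 0 were past the fold in either direction in KD-1, and in KD-2 0 were upward and 2, Zfp42 and Rif1, downward, a share no larger than the 10.2% of all genes. The median log2 ratio of these repressors was 0.04 with KD-1 and -0.43 with KD-2, beside 0.02 and -0.02 over all genes. Scaled by ES cell markers, a list that shares Zfp42 with the repressors, these medians were -0.11 and -0.04, beside -0.14 and 0.38 over all genes, and in KD-2 0 of the 25 were past the fold downward and 1 upward. Dppa4 was likewise not past the fold in KD-2 with this scaling or with total reads. Trim28, the corepressor of KRAB zinc finger proteins, stood at 0.13 and -0.29, and Kdm1a, a histone demethylase, at -0.05 and -0.46.

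Cell type markers moved between libraries too. The summed level of 15 ES cell markers was 1.12 times control in KD-1 and 0.759 times in KD-2, and that of 15 fibroblast markers, for the feeder cells, was 0.696 and 1.70 times. The ES cell markers were split in KD-2, with 7 above and 8 below control, 2 past the fold upward and 2 downward, and a median log2 ratio of -0.21. The 3 with the most reads in control, Zfp42, Dppa5a and Tdgf1, stood at -0.70, -0.57 and -0.61 there, and weigh most in the sum and in the scaling by it. Fibroblast markers were below control in 15 of 15 cases in KD-1 and above it in 15 of 15 in KD-2 under each of the 6 scalings, and none of the markers of either list was at 0 in any library. Of 8 primitive endoderm markers, 2 were past the fold upward in KD-1 and 4 were in KD-2. None was past it downward in either, and the medians were 0.31 and 0.47. Of all genes, 8.58% and 17% were past it upward and 5.65% and 10.2% downward, a background that holds for the trophoblast markers as well. The summed level of the primitive endoderm markers, led by Lama1, was 1.20 and 1.07 times control. Of 6 trophoblast markers that passed the minimum mean, Cdx2, Eomes and Gata3 were past the fold upward in both knockdowns and 0 downward. Cdx2 passed that minimum through the knockdowns, with 6 control reads, 25 KD-1 reads and 24 KD-2 reads. The medians of the 6 were 0.48 and 0.15, while the sum over 7, led by Tfap2c, was 0.933 and 0.816 times control. The ES cell markers were present throughout, at 3966 to 5826 summed RPM. The part of these shifts in the result was not tested. Scaled by the ES cell markers instead of the upper quartile, the Zscan4 sum was 5.67-fold above control in KD-1 and 2.08-fold in KD-2, and KD-1 was 2.73-fold above KD-2.

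**Figure D4:**
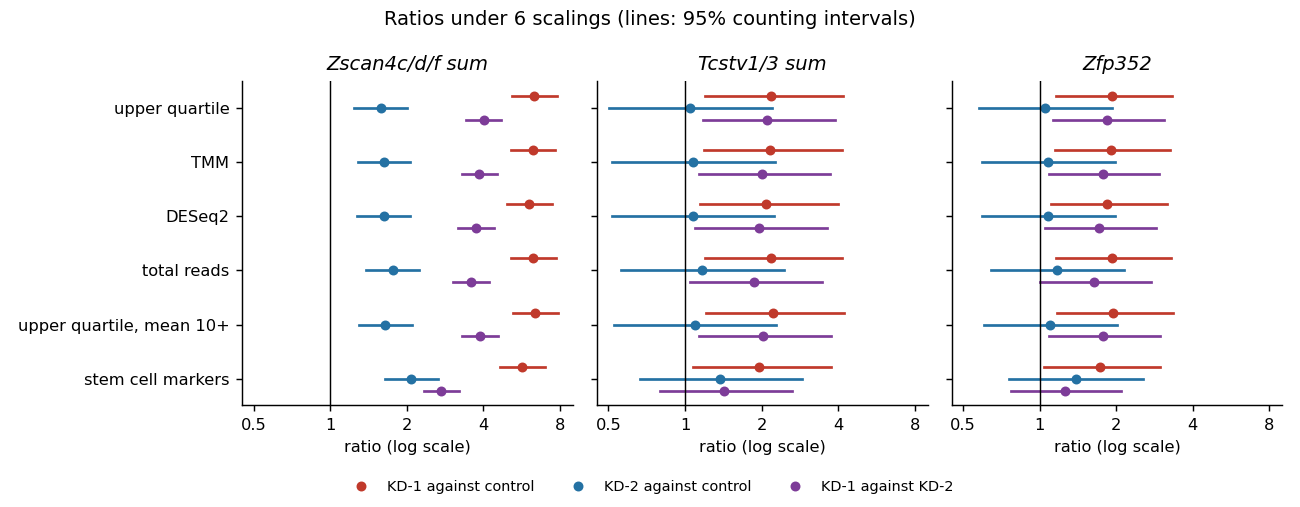
Ratio of scaled reads (horizontal, log scale) for the Zscan4 sum, the Tcstv sum and Zfp352 under 6 ways of scaling the libraries, with exact 95% counting intervals as lines and 1 library per group. The Zscan4 sum stays between 5.67 and 6.38 for KD-1 against control, between 1.58 and 2.08 for KD-2 against control and between 2.73 and 4.01 for KD-1 against KD-2.

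Counted genes that lie near these loci were followed as well. Within 250 kb of the Zscan4 cluster, 0 of 5 other counted genes reached the minimum mean and 3 of them had no read in any library, and within 250 kb of Zfp352 the only other counted gene had no read. Within 250 kb of Tcstv1 and Tcstv3, 9 of 11 other counted genes passed the minimum mean. Their median log2 ratio was 0.08 with KD-1 and -0.19 with KD-2, beside 0.02 and -0.02 over all genes. Past the fold in KD-1 were 3 of the 9, all upward, beside 8.58% of all genes upward and 5.65% downward. These 3 were Gm20767, AF067061 and BC147527, which are genes of the wider list. In KD-2 only AF067061 was past the fold, downward, beside 17% of all genes upward and 10.2% downward. Hmgcs1, an enzyme of cholesterol synthesis in this interval, stood at -0.02 and -0.39.

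Of 16663 other genes, the 10 with the pair of log2 ratios nearest to that of the Zscan4 sum, over 3 libraries, were Oas1f, Gm2016, Crygc, Dpep3, Gm5039, Gm8300, Usp17le, Cd84, 5430402O13Rik and Atp2b2. The distances in log2 units ran from 0.24 for Oas1f to 0.47 for Atp2b2. Gm2016, Gm8300 and Usp17le are on the wider list. Cd84, a receptor of the SLAM family on blood cells, had the most reads of these, with 598 in control, 3260 with KD-1 and 1046 with KD-2. Gm8300, of the eIF1A-like family, had 88, 532 and 135 reads, and Gm5039, a transcribed pseudogene, had 39, 239 and 64. Crygc, a lens crystallin, had 12, 87 and 17. Oas1f, Dpep3 and Atp2b2 had at most 4 reads in control, so their place in this order is uncertain.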

How the data were processed

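Per the labels and methods, the authors sequenced total RNA as single-end reads, trimmed them with Trim Galore 0.4.1, mapped them with TopHat 2.1.1 to mm10 and kept reads of high mapping quality. The deposited values are the authors' unnormalized counts of reads on each gene, from 1 library per group. The methods name featureCounts, while the labels name HTSeq and the counts end in 5 summary lines of that style, which were left out. Reads in no gene were 21.5 to 24.1% and reads in overlapping genes 1.45 to 1.65% of each library.

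Libraries were scaled by the upper quartile with edgeR 4.0.16 in R 4.3.3, and RPM values use the resulting library sizes. Alternatives were TMM, DESeq2 1.42.0 size factors, total reads, the upper quartile of genes averaging 10 reads or more, and ES cell markers. For counts of genes past the fold they were a fold of 2, no minimum mean, a mean of 100 and a pseudocount of 5. Ratios of members use no pseudocount. No test across genes was run, since each group has 1 library and p-values would compare libraries. Ratio and share intervals (95%) are exact and cover counting error only. The ratio intervals were checked on counts simulated from the Poisson model that they assume, and the share intervals were not checked. The members and lists were chosen with earlier results of these data known. By rule the named genes are all members and their sums, and list genes past 1.5-fold in both knockdowns. The rule also names Dux, Dppa2, Dppa4, Trim28 and Kdm1a, the 10 genes nearest in pattern and Nup153. Other genes are named outside this rule with their values known, and not all are marked so. One gene that the rule names is not reported here. Exon lengths and positions are from GENCODE M21, matched by symbol for 23376 genes, and promoters from RefSeq. Alignments used Biopython 1.88, intervals scipy 1.17.1, tables pandas 2.3.3 with numpy 2.4.6, and plots matplotlib 3.10.9, in Python 3.11.15.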

Additional observations from a re-analysis of the deposited data

How the results depend on the processing

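Of 54 ratios of the Zscan4 sum, the Tcstv sum and Zfp352 under other scalings or sums, 52 stayed within the counting interval of the value given and 0 changed direction where the value was past 1.5-fold. The sum over all counted Tcstv copies held the same 2 genes as the Tcstv sum, so those of the 54 ratios could not differ. Scaling by ES cell markers moved the Zscan4 sum to 2.08 in KD-2 against control and to 2.73 in KD-1 against KD-2. For single copies 57 of 60 stayed within the interval, and the same scaling gave 2.77 for Zscan4c, 2.33 for Zscan4d and 3.33 for Zscan4f in KD-1 against KD-2. With it the Tcstv sum and Zfp352 fell to 1.43 and 1.251 between the knockdowns, with intervals that include 1. Members past the fold upward in KD-2 numbered 1 to 3 of 5 over the 6 scalings, 4 to 5 of 5 in KD-1, and 3 to 5 of 5 in KD-1 against KD-2.

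Genes past 1.5-fold numbered 2372 in KD-1, 4542 in KD-2 and 5016 between the knockdowns. A fold of 2 left 762, 1208 and 1842, a mean of at least 100 reads 1029, 2852 and 3319, and no filter gave 5321, 7523 and 8145. Genes considered numbered 16670 at a fold of 2, 12743 at a mean of 100 and 21164 with no filter. For the wider list in KD-2 a fold of 2 left 4 of 33 genes and no filter gave 21 of 47. A mean of 100 left, of 14 genes, 7 in KD-1, 3 in KD-2 and 9 between the knockdowns. The upward share of genes past the fold was 60.3% in KD-1, 62.5% in KD-2 and 46.2% in KD-1 against KD-2, and became 38.1%, 94.8% and 4.87% with ES cell marker scaling, and 82.8% in KD-2 and 25.7% between the knockdowns with total reads. DESeq2 size factors gave 32.8% between the knockdowns. ES cell marker scaling shifted the median of all genes to -0.14 in KD-1, 0.38 in KD-2 and -0.43 between the knockdowns, and total reads shifted it to 0.14 in KD-2. For the wider list in KD-2 the upward share was 58.3%, 76.9% with total reads and 93.3% with ES cell markers. Among its 14 genes averaging 100 reads or more, 0 were past the fold upward and 3 downward. Of all 12743 genes averaging 100 reads or more, 1745 were past it upward and 1107 downward. The cause was not tested.

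No paired analysis was possible because each group had 1 library. Counts of 53 reads or fewer in control limit the precision for the single copies.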
